A study of Mus musculus with 36 samples.

Results

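The colony-stimulating factors are 3 secreted growth factors of white blood cells, encoded in the mouse by Csf1, Csf2 and Csf3. The genes were picked by name and found in the deposited count table by matching its Ensembl identifiers to mouse symbols, which gave 3 members out of 48795 genes. All 3 passed the filter on low counts that left 15901 genes for testing.

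Their transcripts were measured by stranded mRNA sequencing in cultured mouse lung pericyte-like cells, stromal cells resembling those that wrap small vessels. The cells came from lung digests expanded in flasks, were depleted of cells carrying CD31 (endothelial), CD45 (white blood cell) or CD326 (epithelial), were selected for PDGFRβ, a receptor found on pericytes and fibroblasts, and were cultured again. Every treatment group received reduced-serum medium mixed with an equal part of another fluid: bronchoalveolar lavage fluid (BALF) of injured lungs, BALF of uninjured lungs, or sterile buffered saline, called media only. Exposure lasted 24 or 6 h, with 3 female and 3 male libraries for each fluid and time, so n = 6 for each of the 6 combinations and 36 libraries in all. The labels used here give neither the kind of injury nor the age or strain of the mice, and no label states if the replicates were separate mice or cultures. The p-values below therefore measure only the spread between these libraries, which may be technical.

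CSF1, also called M-CSF, keeps macrophages and their precursors alive through the receptor CSF1R and is made steadily by many stromal cells. CSF2, or GM-CSF, signals through an alpha chain (CSF2RA) and the common beta chain (CSF2RB), and in the lung it is needed for alveolar macrophages to mature and clear surfactant. CSF3, or G-CSF, acts through CSF3R to raise the output of neutrophils. The Csf2 and Csf3 transcripts are known as inducible and short-lived, with AU-rich elements in the 3′ UTR that are bound by decay factors such as tristetraprolin (encoded by Zfp36).

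Csf1 (ENSMUSG00000014599) lies on the minus strand at chr3:107741048-107760469, Csf2 (ENSMUSG00000018916) on the minus strand at chr11:54247271-54249667, and Csf3 (ENSMUSG00000038067) on the plus strand at chr11:98701263-98703629, in GENCODE M21 on GRCm38. The AU-rich elements set the 3 transcripts apart. The stretches below are the 30 bases of each 3′ UTR with the most ATTTA pentamers, the core of such elements, and capitals mark the pentamers, which share bases where they overlap.
Csf1: ATTTAaatatctATTTAaaaaataggaagc
Csf2: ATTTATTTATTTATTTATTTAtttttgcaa
Csf3: ATTTAtctctATTTAatATTTAtgcatatt
They are all exonic, in the last exon of an annotated transcript, at chr3:107741096-107741125 (minus strand) for Csf1, chr11:54247320-54247349 (minus strand) for Csf2 and chr11:98702992-98703021 (plus strand) for Csf3. The Csf2 stretch held 5 overlapping pentamers, and the whole 317-base Csf2 3′ UTR held 9. Of the 1727 annotated 3′ UTRs between 0.8 and 1.2 times as long, Csf2 among them, 2 (0.116%) had 5 or more pentamers within any 30 bases. The Csf3 stretch held 3 and its 669-base 3′ UTR held 6 in all, and 29 of 2299 UTRs of like length (1.26%) had 3 or more within 30 bases. The Csf1 stretch held 2 and its 2111-base 3′ UTR held 4 in all, and 28.1% of 2801 UTRs of like length had 2 or more within 30 bases. A pentamer count describes letters and is not a measurement of decay.

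Library totals ran from 17134840 to 35991683 counts, so that a count of 0 allows up to 3 counts, or 0.0831 to 0.183 CPM (counts relative to the library total, scaled here by the trimmed mean of M values, TMM). Intervals and floors cover counting error only. In bulk RNA, fewer cells of a type and less RNA per cell cannot be told apart. Medians over the 36 libraries of 10 pericyte markers ran from 0.0905 CPM for Kcnj8 to 589.9 CPM for Pdgfrb, with Cd248 at 329.8 CPM, Mcam at 147 CPM and Cspg4 at 95.1 CPM, while Kcnj8 and Abcc9 did not exceed 0.642 CPM in any library. Those of 7 fibroblast markers ran from 0.0355 CPM for Col13a1 to 8542 CPM for Col1a1, with Col14a1 at 113 CPM, Dcn at 49.2 CPM and Lum at 1.71 CPM. Replicates 1 and 2 lay closest to each other in 10 of the 12 groups of treatment, sex and time. In 4 libraries the description number begins differently: replicate 3 of male uninjured BALF at 24 h, replicate 3 of male media at both times, and replicate 2 of female media at 24 h. They had 0.709 to 2.16 CPM of Pecam1, an endothelial gene, against 5.60 to 35.3 CPM in the other 32 libraries. Of Lyz2, a macrophage gene, they had 5.42 to 9.45 CPM against 21.8 to 61.1 CPM in the others. No injured BALF library is among them. They held no Csf2 count, had 0.105 to 0.319 CPM of Csf3 and 1630 to 2466 CPM of Csf1, and their part in the results was not tested. The fits without them are given where a call or direction changed.

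By mean CPM, Csf1 ranked 22 of 48795 genes in these cells. CPM is not corrected for length, and Csf1 has 5281 annotated exon bases. It was called lower at 24 h than at 6 h in both lavage fluids and did not pass between injured and uninjured BALF. At 24 h, Csf1 ran from 1563 through a median of 2509 to 3013 CPM in injured BALF, from 1595 through 2149 to 2816 CPM in uninjured BALF, and from 1595 through 1881 to 3318 CPM in media. These 3 ranges overlapped almost wholly, and the highest library of all 18 at 24 h was a media library, female replicate 1. At 6 h it ran from 4026 through 4327 to 4559 CPM in injured BALF, from 3586 through 3766 to 3976 CPM in uninjured BALF, and from 2237 through 3217 to 3599 CPM in media. All 6 injured BALF libraries at 6 h lay above all 6 uninjured BALF libraries, and the uninjured BALF and media ranges touched only at one end. The share of all genes whose ranges separate in this way was not counted, here or for the genes below.

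Injured against uninjured BALF gave Csf1 a log2 fold change of 0.15 ± 0.17 at 24 h (adjusted p = 0.74, 95% interval -0.20 to 0.50) and 0.20 ± 0.17 at 6 h (adjusted p = 0.72, interval -0.15 to 0.55) in edgeR's quasi-likelihood test, and neither passed. Values after ± on fold changes are standard errors, and p-values were adjusted by Benjamini-Hochberg over 15901 genes. An edgeR fit of only the groups compared gave 0.20 for injured against uninjured BALF at 6 h, which did not pass either (adjusted p = 0.117). Against media, Csf1 passed at 6 h with 0.51 ± 0.17 (adjusted p = 0.0286), in a comparison where 25.2% of all genes were called and 13.8% called higher. It did not pass at 24 h, with 0.18 ± 0.17 (adjusted p = 0.48). The call at 6 h lay near the threshold. It was lost when female injured BALF 6 h replicate 1, male injured BALF 6 h replicate 2, female media 6 h replicate 3 or male media 6 h replicate 3 was left out alone (adjusted p 0.0514 to 0.0861), without all libraries of any 1 replicate number (adjusted p 0.0753 to 0.203, with 0.36 without number 3), and without the 4 libraries whose description numbers begin differently (0.45, adjusted p = 0.0761). Uninjured BALF against media gave 0.03 ± 0.17 at 24 h (adjusted p = 0.98) and 0.31 ± 0.17 at 6 h (adjusted p = 0.22).

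Time moved Csf1 in both lavage fluids. At 24 h against 6 h it fell by 0.84 ± 0.17 on the log2 scale in injured BALF (adjusted p = 0.000583) and by 0.79 ± 0.17 in uninjured BALF (adjusted p = 0.000899). No library at 24 h reached the lowest 6 h library of its own fluid. Such falls were common, with 14.2% of all genes called lower in injured BALF (26.9% called in either direction) and 15.5% in uninjured BALF (30.6% in either direction). In media the difference was -0.51 ± 0.17 and did not pass (adjusted p = 0.0668), and 6.82% of all genes were called there. Without female media 24 h replicate 1, the highest media library at that time, it was -0.73 and passed (adjusted p = 0.00533). That library also had the highest share of mitochondrial counts, 3.87% against 1.2 to 2.05% in the other 35, and the lowest TMM factor, 0.874, and their part in its Csf1 level was not tested. It also passed without female media 6 h replicate 3, female injured BALF 24 h replicate 3 or female uninjured BALF 24 h replicate 1 (adjusted p 0.0306 to 0.0423), with DESeq2 (adjusted p = 0.0363), with sex ignored (0.0404) and with the replicate number as a block (0.0348). The media ranges at 24 and 6 h overlapped.

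**Figure D1:**
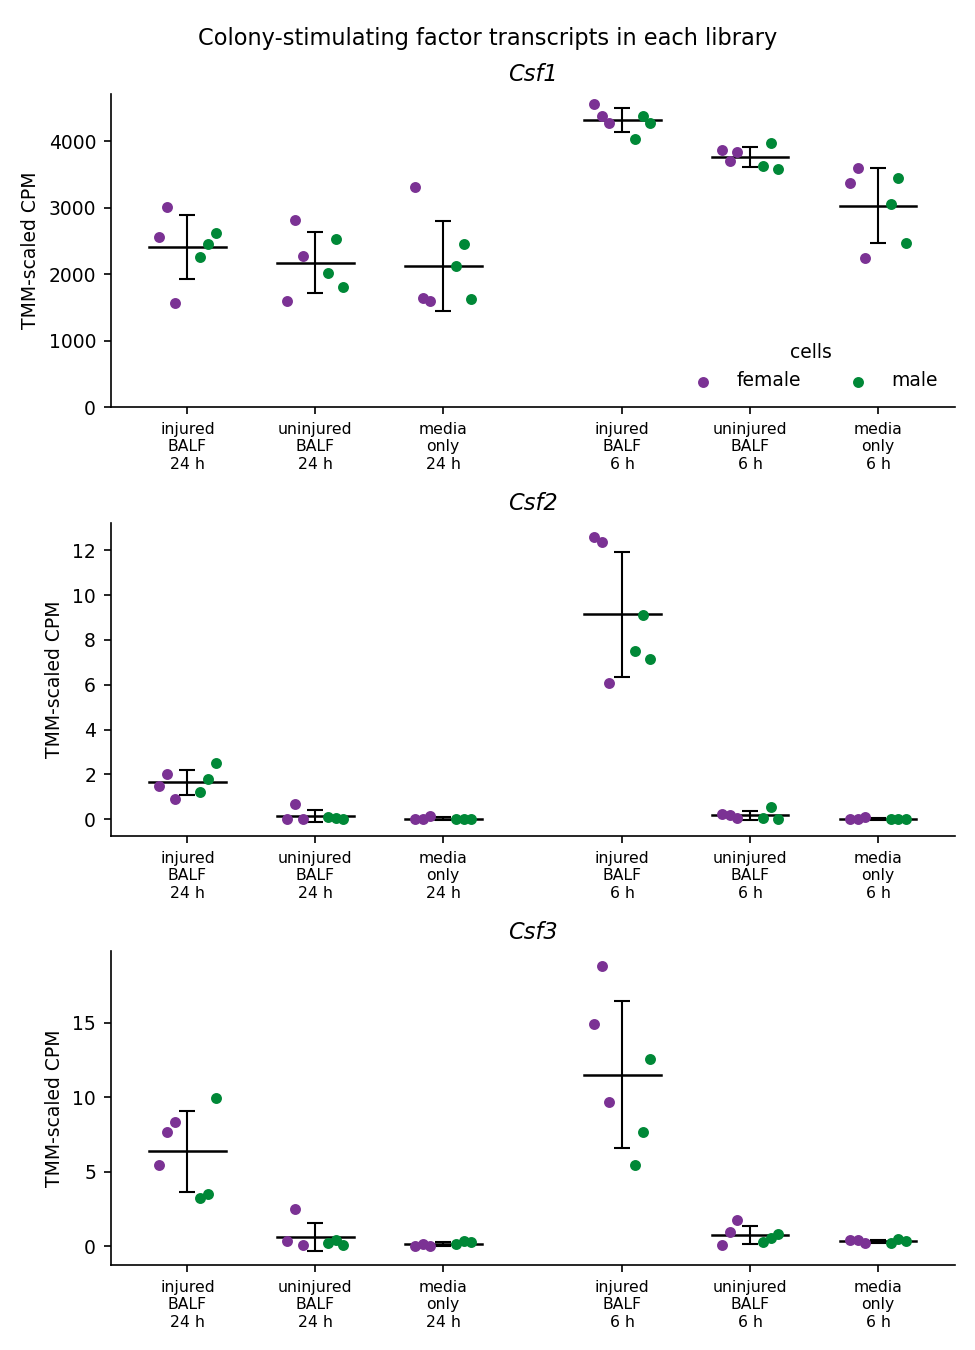
TMM-scaled CPM of Csf1, Csf2 and Csf3 in every library (points, female left of male within a group), with the mean and SD of 6 libraries per treatment and time. The mean of Csf1 was higher at 6 h than at 24 h in all 3 treatments, and all injured BALF libraries of Csf2 and Csf3 lay above the uninjured BALF and media libraries of the same time.

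Csf2 was nearly absent without injured BALF and present in every library with it. In injured BALF at 24 h the 6 libraries held 26 to 76 counts, which is 0.916 through a median of 1.64 to 2.50 CPM. At 6 h they held 123 to 353 counts, or 6.08 through 8.31 to 12.6 CPM. The highest levels at 6 h were those of female replicates 1 and 2, at 12.6 and 12.4 CPM.

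Counts of Csf2 outside injured BALF are few enough to be given one by one. Uninjured BALF at 24 h had 0, 15 and 0 counts in the female libraries and 3, 2 and 0 in the male libraries. Uninjured BALF at 6 h had 5, 4 and 2 counts in the female libraries and 1, 11 and 0 in the male libraries. Media had 4 counts at 24 h, all in female replicate 3, and 3 counts at 6 h, also all in a library numbered female replicate 3, and the other 10 media libraries had 0. Injured BALF did not overlap with uninjured BALF or media at either time: its lowest library at 24 h, 0.916 CPM, lay above the highest uninjured BALF library, 0.674 CPM.

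Csf2 rose in injured against uninjured BALF by 3.88 ± 0.71 on the log2 scale at 24 h (14.7-fold, adjusted p = 0.00167) and by 5.74 ± 0.69 at 6 h (53.3-fold, adjusted p = 9.6e-06). Of all genes tested, 2.39% were called higher at 24 h (4.43% in either direction) and 1.96% at 6 h (3.4% in either direction). Csf2 entered the test through its injured BALF libraries, as the filter asks for enough counts in 3 libraries. Elsewhere its highest counts were 15 and 11, with 5 or fewer in every other library. In edgeR with no filter on low counts both calls held (adjusted p = 0.00593 at 24 h and 4.9e-05 at 6 h). Read as pooled counts, the ratio of 272 to 20 counts at 24 h was 13.9, with an exact 95% interval of 8.84 to 23.2, and that of 1329 to 23 counts at 6 h was 57.9, with an interval of 38.4 to 91.6. The uninjured BALF counts are few, and the fold moved with the prior count and with single libraries. With a prior count of 2 the log2 values were 3.15 at 24 h and 5.23 at 6 h. Without female uninjured BALF 24 h replicate 2, which held 15 of the 20 counts, the 24 h value was 6.62, and the female uninjured BALF libraries then had no count, so that this value depends on the prior count. Without male uninjured BALF 6 h replicate 2 the 6 h value was 7.19. The call at 24 h was lost when all libraries numbered 1 were left out (3.91, adjusted p = 0.0909), and no single library ended it.

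Against media the pooled ratio for Csf2 was 63.0 at 24 h (272 against 4 counts, interval 24.3 to 233) and 487 at 6 h (1329 against 3 counts, interval 166 to 2364). Both passed, at adjusted p = 3.0e-05 and 1.0e-07. Markers of other cells were also called in these comparisons, as given with the cell types. The fitted log2 values, 6.61 and 9.32, depend on the prior count because the male media libraries had no count, and with a prior count of 2 they were 4.10 and 6.61. Without female media replicate 3 of the same time, media held no Csf2 count at all, and the fitted values were 8.42 and 10.87. Called higher against media were 11.5% of all genes at 24 h (23.6% in either direction) and the 13.8% given above at 6 h.

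Uninjured BALF against media did not pass for Csf2 at either time. The pooled ratio was 4.52 at 24 h (20 against 4 counts, interval 1.51 to 18.2, adjusted p = 0.49), and 0.868% of all genes were called. At 6 h it was 8.41 (23 against 3 counts, interval 2.54 to 43.8, adjusted p = 0.0682), with 18.4% of all genes called. DESeq2 gave the 6 h comparison an adjusted p of 0.0238. It also passed in edgeR without male uninjured BALF 6 h replicate 3 (adjusted p = 0.0426), and without female uninjured BALF 24 h replicate 1 or 2 (adjusted p = 0.0486 and 0.0272), libraries that are in neither group and enter through the shared spread.

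In injured BALF, Csf2 was lower at 24 h than at 6 h in all libraries, with no overlap (0.916 to 2.50 CPM at 24 h, 6.08 to 12.6 CPM at 6 h). It fell by 2.47 ± 0.54 on the log2 scale (adjusted p = 0.00143). This call was lost without all libraries numbered 1 (-2.29, adjusted p = 0.0521). In uninjured BALF the difference was -0.61 ± 0.88 (adjusted p = 0.65), and without female uninjured BALF 24 h replicate 2 it was -3.34 and passed (adjusted p = 0.0365). In media, with 4 and 3 counts, no fold over time was estimated. The injured against uninjured effect differed between the times by -1.86 ± 1.13 on the log2 scale (24 h minus 6 h), which did not pass (adjusted p = 0.81, 0.233% of all genes called).

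**Figure D2:**
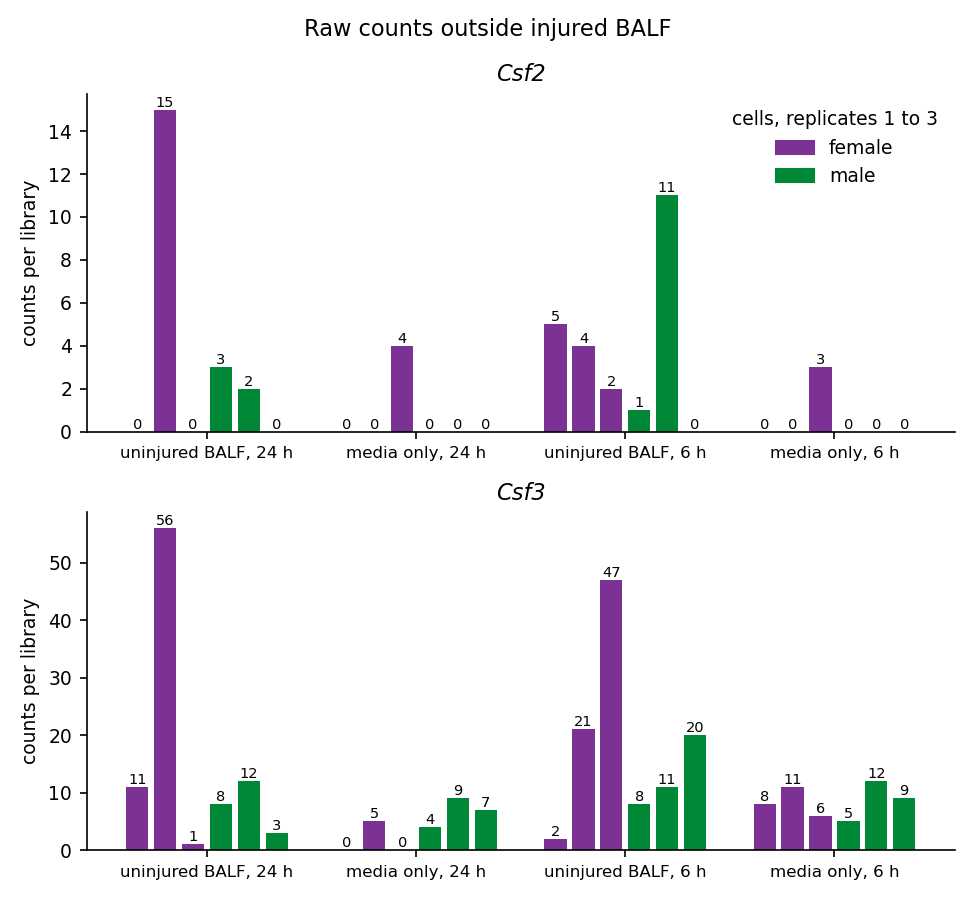
Raw counts of Csf2 and Csf3 in each of the 24 libraries without injured BALF, uninjured BALF left of media at each time, with the count printed above each bar. Most Csf2 counts in uninjured BALF came from 2 libraries, with 15 and 11 counts, and one of them, female replicate 2 at 24 h, also held the most Csf3 counts, 56.

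Csf3 also had its high levels in injured BALF, but it was measured above 0 in 34 of 36 libraries. In injured BALF it ran from 3.26 through a median of 6.55 to 9.95 CPM at 24 h (71 to 303 counts) and from 5.44 through 11.1 to 18.8 CPM at 6 h (89 to 537 counts). In uninjured BALF it ran from 0.0452 through 0.276 to 2.52 CPM at 24 h (1 to 56 counts) and from 0.0916 through 0.684 to 1.73 CPM at 6 h (2 to 47 counts). In media it reached at most 0.322 CPM at 24 h (9 counts), with female replicates 1 and 3 at 0, and ran from 0.187 to 0.450 CPM at 6 h (5 to 12 counts). Every injured BALF library lay above every library of the other fluids at the same time, while uninjured BALF and media overlapped at both times.

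Csf3 rose in injured against uninjured BALF by 3.68 ± 0.57 on the log2 scale at 24 h (12.9-fold, adjusted p = 0.000259) and by 3.95 ± 0.56 at 6 h (15.5-fold, adjusted p = 3.8e-05). The same female uninjured BALF 24 h replicate 2 that carried most Csf2 counts carried 56 of the 91 Csf3 counts of its group, and without it the 24 h value was 4.78. Without all libraries numbered 3 that value was 2.84 (adjusted p = 0.00266). Against media Csf3 rose by 5.55 ± 0.67 at 24 h (adjusted p = 9.8e-07) and by 5.08 ± 0.60 at 6 h (adjusted p = 4.0e-07). The female media libraries at 24 h held 5 counts, all in replicate 2, and without it the 24 h value was 7.51. Uninjured BALF against media gave 1.87 ± 0.76 at 24 h (adjusted p = 0.33) and 1.13 ± 0.62 at 6 h (adjusted p = 0.23), neither of which passed. The 24 h value was 0.79 without female uninjured BALF 24 h replicate 2, 3.81 without female media 24 h replicate 2 and 4.0 without the 4 libraries of other description numbers. The 6 h value was 0.30 without all libraries numbered 3, and no alternative passed at either time.

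Unlike the other members, Csf3 did not pass over time in injured BALF, at -0.82 ± 0.47 for 24 h against 6 h (adjusted p = 0.21, 95% interval -1.79 to 0.15), and its ranges at the 2 times overlapped. Whether Csf2 and Csf3 differ in their change over time was not tested. In uninjured BALF the time difference of Csf3 was -0.55 ± 0.60 (adjusted p = 0.52). It passed at -1.64 without female uninjured BALF 24 h replicate 2 (adjusted p = 0.0303). In media it was -1.30 ± 0.79 (adjusted p = 0.33). The injured against uninjured effect on Csf3 differed between 24 and 6 h by -0.27 ± 0.79, and that on Csf1 by -0.05, and neither passed (adjusted p = 0.998 for both). The uninjured BALF against media effect differed between the times by 0.74 ± 0.99 for Csf3 (adjusted p = 0.80) and -0.28 ± 0.24 for Csf1 (adjusted p = 0.66), with 1.98% of all genes called.

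**Figure D3:**
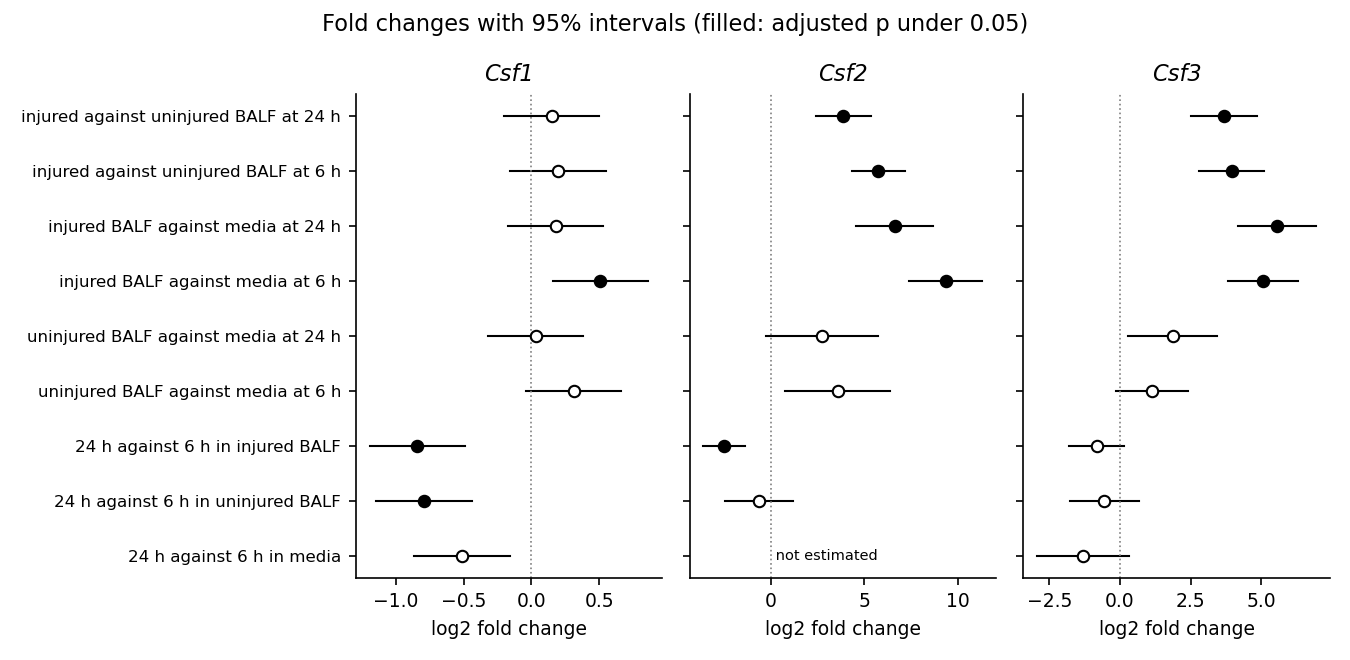
Log2 fold changes of the 3 genes in 9 comparisons, with 95% intervals, filled where the adjusted p was under 0.05, on a separate scale for each gene. Csf2 and Csf3 passed in all 4 comparisons of injured BALF with another fluid, and Csf1 passed against media at 6 h and over time in both lavage fluids.

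Per kilobase of annotated exon, Csf1 exceeded the other members in every group. Mean levels in injured BALF at 24 h were 457 CPM per kilobase for Csf1, 2.06 for Csf2 and 4.50 for Csf3, and at 6 h they were 817, 11.4 and 8.16. In uninjured BALF at 6 h they were 713, 0.220 and 0.521 CPM per kilobase. Csf2 thus had a higher mean than Csf3 in injured BALF at 6 h only, and no test was made of that order.

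Ordered by mean CPM, the 6 combinations ran injured, uninjured and media at 6 h, then injured, uninjured and media at 24 h for Csf1. The gap between injured and uninjured BALF at 6 h was the only one between neighbours in that order without overlap. For Csf2 the order was injured BALF at 6 h, injured BALF at 24 h, uninjured BALF at 6 h and at 24 h, and media at 24 h and at 6 h. Only the first 3 neighbours were separated by range. For Csf3 it was injured BALF at 6 h and at 24 h, uninjured BALF at 6 h and at 24 h, and media at 6 h and at 24 h, and only the step below injured BALF at 24 h was free of overlap.

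The means of Csf2 and Csf3 were higher in injured than in uninjured BALF in cells of either sex. In injured BALF at 24 h Csf2 averaged 1.47 ± 0.54 CPM in female and 1.82 ± 0.65 CPM in male cells, and at 6 h 10.4 ± 3.70 CPM in female and 7.92 ± 1.05 CPM in male cells (SD, n = 3 each). Csf3 averaged 7.14 ± 1.52 CPM in female and 5.58 ± 3.79 CPM in male cells at 24 h, and 14.5 ± 4.58 CPM in female and 8.56 ± 3.66 CPM in male cells at 6 h. In uninjured BALF the means by sex and time lay between 0.0519 and 0.225 CPM for Csf2 and between 0.254 and 0.964 CPM for Csf3. The injured against uninjured effect of no gene differed between the sexes in edgeR at adjusted p under 0.05, at 24 h or at 6 h, with 0% called at both times. Of 15901 genes, 147 at 24 h and 110 at 6 h had an unadjusted p under 0.05 in edgeR. Both counts are below the share of 0.05 that chance alone would give. The test was thus conservative for this difference, and the lack of calls says little about the sexes. DESeq2 called 0 genes at 24 h and 1 at 6 h, which was none of the 3. For Csf2 the female minus male difference was -2.18 at 24 h, with a 95% interval from -5.28 to 0.92, which is too wide to read a likeness of the sexes from it.

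The RNA of other cell types was examined because T cells, mast cells, macrophages and neutrophils can make or sense these factors. Cd3e, which marks T cells, and Fcer1a, which marks mast cells, had no count in any of the 36 libraries, and Ly6g, which marks neutrophils, reached at most 0.0416 CPM. The 9 lymphocyte markers summed to 0.492 to 5.61 CPM over all libraries, of which Gata3 alone reached 5.40 CPM. The 5 mast cell markers summed to 0.213 to 9.29 CPM, of which Kit alone reached 8.82 CPM. The summed level of 9 macrophage markers ran from 63.0 to 80.2 CPM in injured BALF and from 20.9 to 86.7 CPM in uninjured BALF at 24 h, and from 60.2 to 86.0 CPM in injured BALF and from 59.3 to 82.7 CPM in uninjured BALF at 6 h. The 20.9 CPM was that of male replicate 3, a library whose description number begins differently, and the next lowest in that set was 55.5 CPM. The 6 neutrophil markers summed to 1.97 to 5.71 CPM in injured BALF against 0.0905 to 2.74 CPM in uninjured BALF at 24 h, and to 0.814 to 2.88 CPM in injured BALF and 0.458 to 1.61 CPM in uninjured BALF at 6 h. Camp, a granule protein of neutrophils, was the 1 of 2 tested neutrophil markers called in injured against uninjured BALF at 24 h, at 2.71 ± 0.69 on the log2 scale (adjusted p = 0.0194). Of all genes, 2.39% were called higher there. Camp had a median of 0.115 CPM over the 36 libraries and did not exceed 1.66 CPM in any. The 6 endothelial markers summed to 7.09 to 174 CPM and the 5 mesothelial (outer lung lining) markers to 11.5 to 144 CPM over all libraries. In male injured BALF, replicate 3 had endothelial sums of 149 CPM at 24 h and 174 CPM at 6 h. Replicates 1 and 2 had 23.6 to 26.7 CPM. Replicate 3 also had the highest Csf3 of these libraries, 9.95 and 12.6 CPM. In female injured BALF, replicate 3 also had the highest endothelial sum at both times. At 24 h its sum was 88.8 CPM and its Csf3 was the highest of the group, 8.32 CPM. At 6 h its sum was 112 CPM and its Csf3 was the lowest, 9.70 CPM. The part of such RNA in the Csf2 and Csf3 results was not tested.

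The 10 pericyte markers summed to 686 to 1015 CPM in injured BALF and 988 to 1542 CPM in uninjured BALF at 24 h. Of the 9 tested, Mcam and Cd248 were called lower in injured against uninjured BALF at 24 h, at -1.19 ± 0.32 and -1.04 ± 0.21 (adjusted p = 0.0316 and 0.00314), in a comparison where 2.04% of all genes were called lower. At 6 h the sums were 773 to 1280 CPM in injured BALF and 1041 to 1451 CPM in uninjured BALF. Of 6 tested fibroblast markers, Dcn was called higher at 24 h, at 1.37 ± 0.26 (adjusted p = 0.00147). Of 3 tested epithelial markers, the club cell gene Scgb1a1 was called higher at 6 h, at 3.10 ± 0.80 (adjusted p = 0.0320), and it did not exceed 0.834 CPM in any library. These markers were named after their values were seen, and their part in the results was not tested.

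More markers were called in injured BALF against media. At 24 h these included 4 of 9 macrophage markers, all higher, with Cd14 at 1.35, Csf1r at 0.95, Mrc1 at 1.52 and Itgam at 1.97 on the log2 scale. In that comparison 11.5% of all genes were called higher and 23.6% in either direction. Both tested neutrophil markers were higher, Camp at 4.28 and S100a8 at 2.66, and 5 of 9 tested pericyte markers were lower, among them Mcam at -1.60 and Cd248 at -1.56. The macrophage sum was 63.0 to 80.2 CPM in injured BALF and 17.1 to 58.1 CPM in media at 24 h, without overlap, and the neutrophil sum was 1.97 to 5.71 CPM in injured BALF and 0.116 to 0.939 CPM in media. The lowest macrophage sums in media, 17.1 and 18.6 CPM, were those of female replicate 2 and male replicate 3, whose description numbers begin differently. The other media libraries at 24 h had 37.6 to 58.1 CPM. At 6 h Cd14 was higher at 0.98, and 4 of 9 tested pericyte markers, Tcf21 at -1.14 and Kdr at -1.31 were lower. In that comparison 13.8% of all genes were called higher and 25.2% in either direction. Uninjured BALF against media at 6 h also had Cd14 higher, at 1.01, and Csf1r, at 0.76. Pdgfrb at -0.58 and Kdr at -0.98 were lower there, with 18.4% of all genes called. Scgb1a1, with no count in media at 24 or 6 h, was called higher in injured BALF against media at both times. It was also called higher in uninjured BALF against media at 24 h. The part of these markers in the Csf2 and Csf3 results against media was not tested.

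The receptors of the 3 factors were low in these cells. Csf3r had 19 counts in all 36 libraries together and was not tested. Csf2ra, the alpha chain for CSF2, ran from 3.39 to 5.33 CPM in injured BALF and from 4.39 to 6.30 CPM in uninjured BALF at 24 h, and did not pass at either time (-0.14 ± 0.15 at 24 h and 0.08 ± 0.15 at 6 h). Of the 5 tested genes in the list of receptors and Il34, which encodes the other ligand of CSF1R, 1 was called higher at 24 h and 4 did not pass, and at 6 h 1 was called higher, 1 lower and 3 did not pass. Over all genes, 2.39% were called higher and 2.04% lower at 24 h, and 1.96% higher and 1.45% lower at 6 h. The median log2 fold change of the 5 was 0.42 at 24 h and 0.62 at 6 h, beside medians near 0 over all genes (-0.00383 at 24 h and -0.000106 at 6 h).

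Csf2rb, the common beta chain, averaged 1.07 ± 0.40 CPM in injured BALF against 0.408 ± 0.26 CPM in uninjured BALF at 24 h, and 1.25 ± 0.57 CPM in injured BALF and 0.535 ± 0.27 CPM in uninjured BALF at 6 h (SD, n = 6 each). It was called higher at 24 h, at 1.53 ± 0.35 (adjusted p = 0.00912), and at 6 h, at 1.23 ± 0.34 (adjusted p = 0.0410). The 24 h call was lost without all libraries numbered 2 or 3 and with sex ignored, and the 6 h call was lost in 10 of the 36 fits that each left out 1 library. Csf2rb2, its near-identical neighbour, did not pass (1.26 ± 0.47 at 24 h and 0.62 ± 0.48 at 6 h), and reads of the pair may have been shared between them, so both values are uncertain.

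Csf1r averaged 9.27 ± 2.92 CPM in injured BALF against 15.3 ± 1.23 CPM in uninjured BALF at 6 h, and the ranges, 6.64 to 14.8 CPM in injured BALF and 13.9 to 17.2 CPM in uninjured BALF, overlapped. It was called lower, at -0.73 ± 0.20 (adjusted p = 0.0428), and the call was lost in 16 of the 36 fits that each left out 1 library. At 24 h it was 0.24 ± 0.20 (adjusted p = 0.62), with 8.93 ± 1.66 CPM in injured BALF and 7.63 ± 1.96 CPM in uninjured BALF. Csf1r also marks macrophages, and it was the 1 of 9 macrophage markers called in that comparison at 6 h. Il34 had 4.20 ± 1.37 CPM in injured BALF against 3.07 ± 1.18 CPM in uninjured BALF at 24 h, and 6.72 ± 2.13 CPM in injured BALF against 3.69 ± 1.91 CPM in uninjured BALF at 6 h, and it did not pass (0.42 ± 0.31 at 24 h, 0.87 ± 0.31 at 6 h, adjusted p = 0.16).

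**Figure D4:**
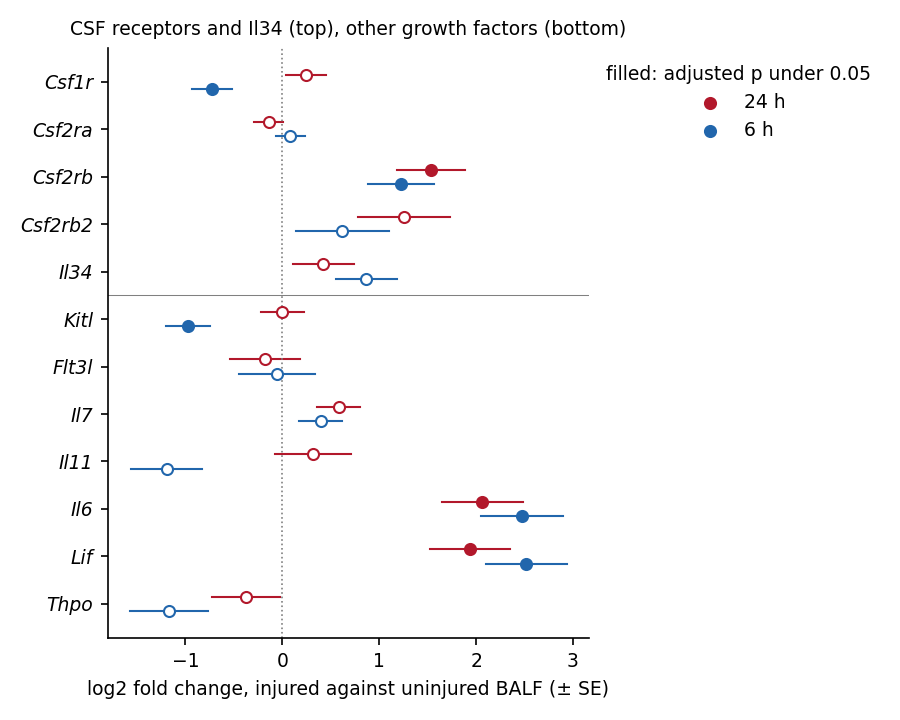
Log2 fold changes (± SE) of injured against uninjured BALF at 24 h (red) and 6 h (blue) for the 5 tested genes of the receptor list and 7 other blood-cell growth factors, filled where the adjusted p was under 0.05. Il6 and Lif passed at both times, and Kitl and Csf1r were called lower at 6 h.

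Among 10 other growth factors of blood cells, 7 were tested. Il3, Il5 and Epo had too few counts. At 24 h 2 were called higher and 5 did not pass, and at 6 h 2 were higher, 1 was lower and 4 did not pass, with list medians of 0.32 and -0.06, beside 2.39% of all genes called higher at 24 h, and 1.96% higher and 1.45% lower at 6 h. Il6, an inflammatory cytokine that also acts on blood precursors, averaged 180 ± 52.1 CPM in injured BALF against 44.8 ± 32.8 CPM in uninjured BALF at 24 h, and 618 ± 138 CPM in injured BALF and 112 ± 45.0 CPM in uninjured BALF at 6 h. It rose by 2.06 ± 0.42 at 24 h and 2.47 ± 0.42 at 6 h on the log2 scale (adjusted p = 0.00306 and 0.000435). Lif, a cytokine of the same family, rose by 1.94 ± 0.41 at 24 h and 2.52 ± 0.42 at 6 h (adjusted p = 0.00483 and 0.000311). These calls for Il6 and Lif were lost without all libraries numbered 1, and that of Lif at 24 h also in a fit of only the groups compared. Kitl, the stem cell factor, averaged 25.3 ± 4.55 CPM in injured BALF at 6 h, with a highest library of 31.8 CPM, against a lowest library of 41.9 CPM in uninjured BALF. It fell by 0.98 ± 0.23 on the log2 scale (adjusted p = 0.0115), where 1.45% of all genes were called lower. At 24 h Kitl gave 0.00 ± 0.23. The 6 h call of Kitl was lost without all libraries numbered 1 or 2.

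Receptors and adaptors for known inducers of these factors (interleukin 1, interleukin 17, tumour necrosis factor and Toll-like receptor ligands) formed a list of 11, all tested. At 24 h 1 was called higher and 10 did not pass, and at 6 h 2 were higher and 9 did not pass, with list medians of 0.12 and 0.17, beside 2.39% of all genes called higher at 24 h and 1.96% at 6 h. Tlr2, a receptor for bacterial lipoproteins, averaged 17.3 ± 8.06 CPM in injured BALF against 6.28 ± 3.13 CPM in uninjured BALF at 24 h, and 26.6 ± 5.88 CPM in injured BALF and 5.18 ± 1.33 CPM in uninjured BALF at 6 h. It rose by 1.44 ± 0.29 at 24 h (adjusted p = 0.00314) and by 2.36 ± 0.30 at 6 h (adjusted p = 1.1e-05). Tnfrsf1b, a tumour necrosis factor receptor, rose by 0.82 ± 0.16 at 6 h (adjusted p = 0.00144). Il1r1 did not pass, at 0.47 ± 0.28 and 0.59 ± 0.28. The 24 h call of Tlr2 was lost without all libraries numbered 2 and in a fit of only the groups compared, and the call of Tnfrsf1b without those numbered 1 or 2.

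Of 16 transcription factors known to act at colony-stimulating factor genes, 5 were called higher and 11 did not pass at each time, with list medians of 0.42 at 24 h and 0.34 at 6 h. Of all genes, 2.39% were called higher at 24 h and 1.96% at 6 h. At 24 h the 4 with the lowest p were Ets2 at 0.91 ± 0.11, Relb at 0.76 ± 0.13, Nfkb2 at 0.58 ± 0.10 and Nfkb1 at 0.78 ± 0.14 (adjusted p 1.2e-05 to 0.000865). At 6 h they were Nfkb2 at 0.74 ± 0.10, Nfkb1 at 0.96 ± 0.14, Cebpd at 1.71 ± 0.25 and Nfkbiz at 1.38 ± 0.26 (adjusted p 2.6e-05 to 0.00164). Relb, Nfkb2 and Nfkb1 encode NF-κB subunits, Nfkbiz a nuclear cofactor of NF-κB, Cebpd a C/EBP factor and Ets2 an ETS factor. The AP-1 genes Jun, Fos and Fosl1 did not pass at either time, nor did Rela. The calls of Relb, Nfkb2 and Nfkb1 at 24 h and of Cebpd and Nfkbiz at 6 h were each lost without all libraries of 1 or 2 of the replicate numbers. Those of Ets2 at 24 h and of Nfkb1 and Nfkb2 at 6 h held in all alternatives run.

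Of 10 genes for proteins that bind or cleave such transcripts, 2 were called higher at 24 h and 8 did not pass, and at 6 h 2 were higher, 1 was lower and 7 did not pass, with list medians of 0.12 and 0.00. The shares of all genes were 2.39% higher at 24 h, and 1.96% higher and 1.45% lower at 6 h. Zc3h12a, which encodes Regnase-1, a ribonuclease that degrades inflammatory transcripts, averaged 73.8 ± 4.97 CPM in injured BALF and 22.9 ± 13.1 CPM in uninjured BALF at 24 h. At 6 h it averaged 104 ± 17.9 CPM in injured BALF and 26.3 ± 7.51 CPM in uninjured BALF. The ranges did not overlap at either time, and it rose by 1.75 ± 0.23 at 24 h (adjusted p = 3.3e-05) and 2.0 ± 0.23 at 6 h (adjusted p = 2.3e-06). Without all libraries numbered 1 the adjusted p at 24 h was 0.0501. Zfp36l1, a relative of tristetraprolin, rose by 0.90 ± 0.16 at 24 h and 0.93 ± 0.16 at 6 h, and Zfp36l2, another relative, fell by 0.82 ± 0.15 at 6 h (adjusted p = 0.00111). Both these genes lost their 6 h call without all libraries numbered 1 or 2, and Zfp36l1 lost its 24 h call without those numbered 2. Zfp36 itself gave -0.15 ± 0.43 at 24 h and -0.11 ± 0.43 at 6 h and did not pass.

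Libraries numbered 1 and 2 were close in most groups, and summing them into 1 sample left 2 samples a group. In female uninjured BALF and female media at 24 h, replicates 2 and 3 were instead the closest pair. There the sum joined less alike libraries and kept the closest apart, so it is a weaker check at 24 h. The calls of Csf2 and Csf3 in injured against uninjured BALF held under that sum at both times (adjusted p 0.0084 to 0.0401). Among the list genes named above, the calls lost under it were at 24 h those of Csf2rb, Il6, Tlr2 and Nfkb1, and at 6 h those of Csf2rb, Csf1r, Il6, Kitl, Tnfrsf1b, Nfkbiz and Zfp36l1.

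Likeness of pattern was described by Pearson's r of log2 CPM over the 36 libraries, against the 10617 or 10618 other genes averaging at least 2 log2 CPM. These libraries share treatments, times and the closeness of replicates 1 and 2, so r is given with no p. Most like Csf2 were Cxcl16, a chemokine (r = 0.958), Tnip1, a feedback inhibitor of NF-κB (0.939), Vcam1, an adhesion molecule for white blood cells (0.934), Zc3h12a (0.916) and Ptch1, a Hedgehog receptor (0.913). Most like Csf3 were Vegfc, a lymphatic growth factor (r = 0.925), Cxcl16 (0.919), Zc3h12a (0.918), Nfkbia, which encodes the NF-κB inhibitor IκBα (0.917), and the monocyte chemokine Ccl2 (0.915). Cxcl16 and Zc3h12a were thus among the 5 genes nearest to both.

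Most like Csf1 were Chd1, a chromatin remodeller (r = 0.959), Bdp1, a subunit of an RNA polymerase III initiation factor (0.955), Nup153, a nuclear pore protein (0.953), E2f3, a cell cycle transcription factor (0.953), and Lrrc59 (0.953). None of these 5 was among the 5 nearest to Csf2 or Csf3. Between the members themselves r was 0.888 for Csf2 with Csf3, 0.465 for Csf1 with Csf2 and 0.431 for Csf1 with Csf3.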

How the data were processed

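Per the labels' protocols, libraries were made from total RNA with a TruSeq Stranded mRNA kit. The authors deposited whole-number counts per gene for 36 libraries. STAR 2.5.2b, RSEM 1.2.31, DESeq2 and GRCm38 are named, per the submitters' processing notes, without their roles, so the deposited counts may be rounded RSEM estimates that share reads among near-identical genes. Identifiers were matched to GENCODE M21 (48435 of 48795, 99.3%), and the rest held at most 0.0108% of any library. Totals were 17134840 to 35991683 counts.

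All 36 libraries entered 1 fit in edgeR 4.0.16 (R 4.3.3), a robust quasi-likelihood test with TMM factors of 0.874 to 1.092 and an expression filter that left 15901 genes. The model had 12 groups and 24 residual degrees of freedom. A treatment effect averages the effects in the sexes, and genes were called at a Benjamini-Hochberg adjusted p under 0.05. A standard error is the log2 fold change over the root of F. CPM are TMM-scaled. Count ratios have exact binomial 95% intervals. AU-rich stretches were read from GENCODE transcripts. The members, the lists and the rule for named genes (the members, up to 4 called genes of each list with the lowest p, and the 5 most alike genes per member) were chosen with earlier results of these data known. Alternatives were DESeq2 1.42.0, other scalings, filters and prior count, only the groups compared, sex ignored, a replicate block, summed libraries 1 and 2, and libraries left out.

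Replicate numbers were checked as pairs by correlating deviations of same-numbered libraries from their group means. All 3 correlations exceeded 0.1 in both sexes for injured against uninjured BALF at 6 h (0.333 to 0.654). They also did so for 24 h against 6 h in injured BALF (0.228 to 0.593). Libraries of different numbers were not compared, and a replicate 3 that differs alike in both groups would give the same signs. The check therefore cannot show that the numbers pair the libraries.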

Additional observations from a re-analysis of the deposited data

Results flagged for a closer look

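Of the 18 sets of 6 libraries (3 genes, each treatment and time), 4 had 1 library farther from the others than Dixon's test allows at 95%, where chance gives about 1 set in 20. That rate is for continuous values and need not hold for low counts, as in these 4 sets. The 4 values came from 3 libraries, all female. Csf2 in female uninjured BALF 24 h replicate 2 was at 0.674 CPM (15 counts), while the other 5 libraries of uninjured BALF at 24 h ran from 0 to 0.0831 CPM. The same library was at 2.52 CPM of Csf3 (56 counts), while the others ran from 0.0452 to 0.435 CPM. Csf2 in female media 24 h replicate 3 was at 0.145 CPM (4 counts), and in female media 6 h replicate 3 at 0.0935 CPM (3 counts), while the other 5 libraries of each set had no count, so that any single library with a count would stand apart there.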

How the results depend on the processing

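The values below are log2 fold changes or their differences, over up to 50 alternatives for each result. The calls of Csf2 and Csf3 in injured BALF against uninjured BALF or media kept direction and call in every alternative run, except Csf2 at 24 h against uninjured BALF, which did not pass without the libraries numbered 1. Its values with libraries left out ran from 3.38 to 6.62. The cause was not tested for any change below.

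Csf1 in injured BALF against media at 6 h did not pass without the 4 libraries of other description numbers (0.45), and with libraries left out it ran from 0.36 to 0.62. Csf1 in uninjured BALF against media at 24 h turned to -0.070 without those 4 and ran from -0.16 to 0.37 with libraries left out. In the same comparison Csf2 ran from -0.42 to 4.98 with libraries left out, and was 0.95 with a prior count of 2. At 6 h, where it passed with DESeq2 (3.46), Csf2 ran from 1.82 to 5.55 with libraries left out. The lowest value among the other alternatives at 6 h was 1.38. The male media libraries had no Csf2 count, so these fitted values depend on the prior count. Over time, with libraries left out, Csf2 ran from -2.64 to -2.29 in injured BALF and from -3.34 to 0.84 in uninjured BALF, and Csf3 from -1.93 to 0.52 in uninjured BALF. Csf1 over time in media, which did not pass, passed with DESeq2 (-0.52), with sex ignored (-0.51) and with the replicate number as a block (-0.51), and ran from -0.73 to -0.37 with libraries left out.

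The replicate block changed no other call of the 3 genes. Over all 18 pairs of groups, all 3 correlations of same-numbered libraries exceeded 0.1 in 8, and the lowest correlation was -0.491.

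Differences of effects, of which none passed, changed sign in some alternatives. Between 24 and 6 h, the injured against uninjured difference ran from -0.16 to 0.076 for Csf1, from -3.31 to 0.88 for Csf2 and from -1.67 to 1.30 for Csf3 with libraries left out, and was 0.31 for Csf3 with libraries 1 and 2 summed. The uninjured against media difference ran from -0.58 to 0.027 for Csf1 and from -0.33 to 2.69 for Csf3. Between female and male cells at 24 h the ranges were -0.37 to 0.29 for Csf1, -3.64 to 3.28 for Csf2 and -2.11 to 0.63 for Csf3. At 6 h they were -0.015 to 0.10 for Csf1, -2.36 to 1.22 for Csf2 and -0.54 to 1.00 for Csf3. At 6 h the difference also turned to -0.0042 for Csf1 with libraries 1 and 2 summed, and for Csf3 to 0.016 with DESeq2, 0.049 with a prior count of 2 and 0.16 with the replicate block.

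The number of genes called also moved with the setting. In injured against uninjured BALF it was 704 at 24 h, with 92 to 1023 over the alternatives, and 541 at 6 h, with 70 to 749. It was 3759 (1330 to 4443) at 24 h and 4002 (1935 to 4576) at 6 h against media, and 138 (0 to 510) at 24 h and 2918 (938 to 3550) at 6 h in uninjured BALF against media. Over time it was 4284 (2031 to 4923) in injured BALF, 4864 (1934 to 5579) in uninjured BALF and 1085 (0 to 1961) in media. Depth limits Csf2 and Csf3 outside injured BALF, where most libraries held under 20 counts.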
